A study of Homo sapiens with 10 samples.

Results

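The ZFP36 family comprises ZFP36 (also called tristetraprolin), ZFP36L1 and ZFP36L2, and these 3 genes are described here among the 20327 genes of the deposited tables. The members were taken by family membership, matched on their Ensembl identifiers, and all 3 were in every table and above the filter on low values in every comparison. The family itself was selected on the RPKM values of these libraries, which were known for both merbarone contrasts when it was proposed, so the members' levels and their differences between groups are given as a description without p-values. RPKM counts the reads on a gene per length of that gene and per size of its library. The libraries are polyadenylated RNA of wild type hTERT RPE-1, a human cell line of retinal pigment origin that grows indefinitely through an added telomerase gene, kept for 48 h in medium with 0.1% serum. In the first experiment, cells received 200 µM merbarone, a catalytic inhibitor of topoisomerase II, for 30 min (3 libraries) or the vehicle DMSO for 30 min (3 libraries). In the second, cells received 200 µM merbarone for 2 h (2 libraries) or were untreated (2 libraries), so that control had no vehicle.

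Proteins of this family carry a tandem of CCCH zinc fingers that binds AU-rich elements, short U-rich stretches in the 3′ untranslated regions (3′ UTRs) of many cytokine, growth factor and early response mRNAs. Bound mRNAs are passed to the CCR4-NOT deadenylase and other decay enzymes, which shorten the poly(A) tail and degrade the transcript. The genes themselves respond quickly to serum, growth factors and stress, and kinases of the p38 and MK2 pathway phosphorylate the proteins, which then bind 14-3-3 adaptors and lose decay activity.

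The mRNAs of the family carry the same letters that their proteins bind. In the canonical transcript of each member the 3′ UTR held 3 copies of the heptamer TATTTAT, in 708 bases for ZFP36, 1871 for ZFP36L1 and 1917 for ZFP36L2. Each also held 1 copy of the nonamer TTATTTATT, which contains the heptamer. Only the transcript's strand was searched, and overlapping copies were counted. Among 18511 genes of the tables with an annotated 3′ UTR, 32.1% held at least 1 heptamer, 6.33% held at least 3, and 8.54% held at least 1 nonamer. The nonamer sites are shown with 10 bases on each side, 5′ to 3′ on the transcript's strand and with the nonamer in capitals, because they are the feature that all 3 members share.
ZFP36: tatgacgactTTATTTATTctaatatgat
ZFP36L1: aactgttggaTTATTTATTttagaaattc
ZFP36L2: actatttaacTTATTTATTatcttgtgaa
These are GRCh37 positions chr19:39899836-39899864 on the plus strand, chr14:69254794-69254822 on the minus strand and chr2:43450587-43450615 on the minus strand. A match of letters is not a measured binding site.

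Promoter windows were found in the RefSeq table for 2 of the 3 members, with 250 bases before the start site and 50 after it. Those of ZFP36 and of 1 of the 2 listed ZFP36L1 start sites are shown, since these are the members whose RNA differed most between groups. Capitals mark matches, on either strand, to a GC box (GGGCGG), a cyclic AMP response element (TGACGTCA), an EGR site (GCGNGGGCG), an AP-1 site (TGANTCA) or a CArG box. TATAAG and TATAAA were searched too and are left in lower case.
ZFP36: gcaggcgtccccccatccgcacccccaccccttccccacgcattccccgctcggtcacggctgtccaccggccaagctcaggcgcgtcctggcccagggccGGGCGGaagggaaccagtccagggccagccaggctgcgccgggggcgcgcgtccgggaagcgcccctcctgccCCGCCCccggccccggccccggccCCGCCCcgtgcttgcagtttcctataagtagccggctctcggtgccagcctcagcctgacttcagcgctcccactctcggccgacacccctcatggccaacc
ZFP36L1: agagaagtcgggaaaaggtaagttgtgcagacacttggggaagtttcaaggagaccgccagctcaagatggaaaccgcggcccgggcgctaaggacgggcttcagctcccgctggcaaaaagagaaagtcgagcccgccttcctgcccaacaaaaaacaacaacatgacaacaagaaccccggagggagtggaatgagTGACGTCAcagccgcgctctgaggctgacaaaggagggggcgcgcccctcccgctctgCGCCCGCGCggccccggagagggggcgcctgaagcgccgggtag
In GRCh38.p14 they are chr19:39406597-39406896 (plus strand) and chr14:68793367-68793666 (minus strand). The ZFP36 window held 3 GC boxes, starting at -149, -76 and -52 from the start site, a TATAAG from -30 to -25, and a GC content of 74.7% against a median of 58.7% over 35116 windows. The ZFP36L1 window held 1 cyclic AMP response element, from -52 to -45, and 1 EGR match, from 7 to 15 after the start. Of all 35116 windows, 45.0% held a GC box, 1.85% the cyclic AMP response element, 9.43% an EGR match, 7.71% an AP-1 match, 1.29% a CArG box and 15.3% a TATAAG or TATAAA. No AP-1 or CArG match was present in these letters, and none of the searched motifs was found in the second ZFP36L1 window, which is not printed.

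ZFP36 (ENSG00000128016; GRCh37 chromosome 19, 39897487 to 39900052, plus strand) had the lowest level of the family and the largest difference at 30 min. It measured 3.31, 3.80 and 2.52 RPKM in the DMSO libraries and 11.6, 12.9 and 7.12 RPKM in the 30 min merbarone libraries, in the order of the replicate numbers. The lowest treated library lay above the highest control library. The group means were 3.21 ± 0.642 and 10.5 ± 3.03 RPKM (SD, n = 3), a ratio of 3.28. Between 229 and 303 reads in the controls and between 649 and 1259 reads in the treated libraries lay behind these values. In the 2 h experiment it measured 5.42 and 6.78 RPKM untreated and 9.27 and 8.08 RPKM after merbarone, from 188 to 330 reads. The groups again did not overlap, with means of 6.10 ± 0.961 and 8.67 ± 0.839 RPKM (SD, n = 2) and a ratio of 1.42. The untreated libraries thus lay between the DMSO and the 30 min merbarone libraries.

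ZFP36L1 (ENSG00000185650; chromosome 14, 69254377 to 69262970, minus strand), the family member best known for limiting growth factor and cell cycle mRNAs, showed the opposite order of the differences. It measured 16.2, 20.1 and 17.3 RPKM in DMSO and 21.9, 27.1 and 25.1 RPKM after 30 min of merbarone, with means of 17.9 ± 1.98 and 24.7 ± 2.63 RPKM (SD, n = 3). The 3 treated libraries lay above the 3 controls, and the ratio of the means was 1.38. In the 2 h experiment the untreated libraries measured 38.1 and 38.3 RPKM and the merbarone libraries 83.0 and 83.2 RPKM, with means of 38.2 ± 0.139 and 83.1 ± 0.158 RPKM (SD, n = 2). The ratio of these means was 2.18, and the replicates differed far less than the groups. Reads per library ranged from 3815 to 10016. The control levels of the 2 experiments were themselves apart, 17.9 RPKM in DMSO and 38.2 RPKM in untreated cells, and vehicle and experiment cannot be told apart here.

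ZFP36L2 (ENSG00000152518; chromosome 2, 43449541 to 43453745, minus strand), a family member studied mostly in blood and germ cell development, had the smallest differences of the family. It measured 16.2, 19.8 and 16.9 RPKM in DMSO and 18.5, 20.5 and 22.5 RPKM after 30 min of merbarone, and the groups overlapped. Their means were 17.6 ± 1.91 and 20.5 ± 2.03 RPKM (SD, n = 3). At 2 h it measured 21.5 and 20.3 RPKM untreated and 21.0 and 22.9 RPKM after merbarone, again overlapping, with means of 20.9 ± 0.819 and 21.9 ± 1.31 RPKM (SD, n = 2). Between 1024 and 3321 reads per library lay behind these values. In bulk RNA, fewer expressing cells and less RNA per cell cannot be told apart, for this and every gene below.

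**Figure D1:**
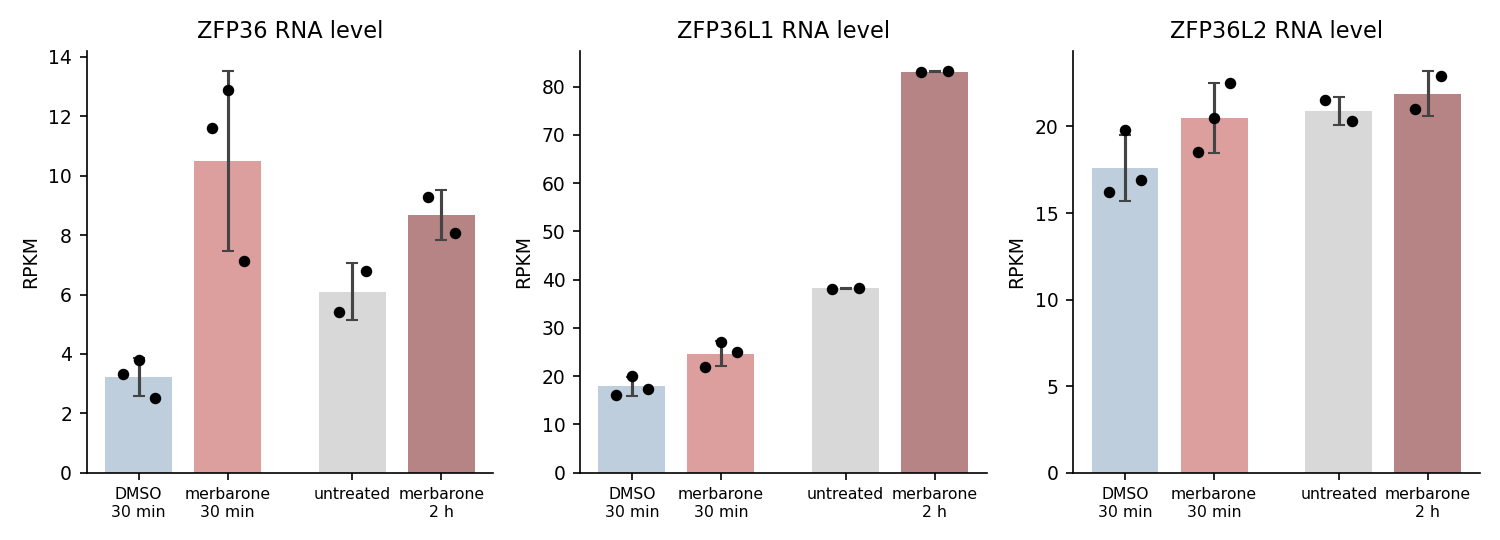
RPKM of ZFP36, ZFP36L1 and ZFP36L2 (vertical axes, each from 0) in the 4 groups, with a point per library, bars at the group mean and error bars of 1 SD (n = 3 at 30 min, n = 2 at 2 h). The ZFP36 mean is highest in the 30 min merbarone group (10.5 RPKM, libraries from 7.12 to 12.9). Replicate 3 of that group lies below both 2 h merbarone libraries (9.27 and 8.08 RPKM). ZFP36L1 is highest in the 2 h merbarone group (83.0 and 83.2 RPKM), and the ZFP36L2 groups overlap within each experiment. The experiments had unlike controls.

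The treated and control libraries were compared with limma on log2(RPKM + 1), fitted over all genes that averaged 1 RPKM or more in the experiment. Log2 differences on this scale understate the change of low genes. At 30 min the differences were 1.43 ± 0.22 (SE) for ZFP36, 0.44 ± 0.11 for ZFP36L1 and 0.21 ± 0.10 for ZFP36L2. None of the 3 members passed the threshold, an adjusted p of 0.05, where 0.0154% of the 6500 genes tested did (1 gene). Same-numbered libraries of this experiment deviated together, so the fit with the replicate number as a block is given beside it. In that fit the estimates were the same and the SE was 0.07 for ZFP36, 0.04 for ZFP36L1 and 0.07 for ZFP36L2. ZFP36 and ZFP36L1 then passed, where 0.123% of the genes tested did (8 genes), and ZFP36L2 did not. Nothing is read from these counts, because the family was chosen with this contrast known.

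Within same-numbered pairs, ZFP36 was 1.54, 1.54 and 1.2 higher on the log2 scale in merbarone than in DMSO in pairs 1, 2 and 3, although its treated libraries ranged from 7.12 to 12.9 RPKM. ZFP36L1 was higher by 0.41, 0.41 and 0.51. ZFP36L2 was higher by 0.17, 0.05 and 0.40, also positive in each pair. Groups that did not overlap, with merbarone higher, occurred for 0.877% of the genes tested, and ZFP36 and ZFP36L1 were among them.

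At 2 h the log2 differences were 0.45 ± 0.12 (SE) for ZFP36, 1.10 ± 0.11 for ZFP36L1 and 0.06 ± 0.10 for ZFP36L2. ZFP36 and ZFP36L1 passed the threshold, beside 13.1% of the 6620 genes tested, and their groups did not overlap, as for 22.5% of those genes with merbarone higher. For ZFP36 the call was lost without the first merbarone library of the 2 h experiment, when the difference was 0.36, and in a fit over all 10 libraries. Nothing is read from these calls either, because this contrast was known too when the family was chosen. The 95% interval for ZFP36L2 ran from -0.17 to 0.30 at 2 h and from -0.04 to 0.46 at 30 min, and both intervals include 0. With the replicate block the 30 min interval ran from 0.03 to 0.38 and did not include 0. These intervals are not adjusted for the number of genes tested.

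**Figure D2:**
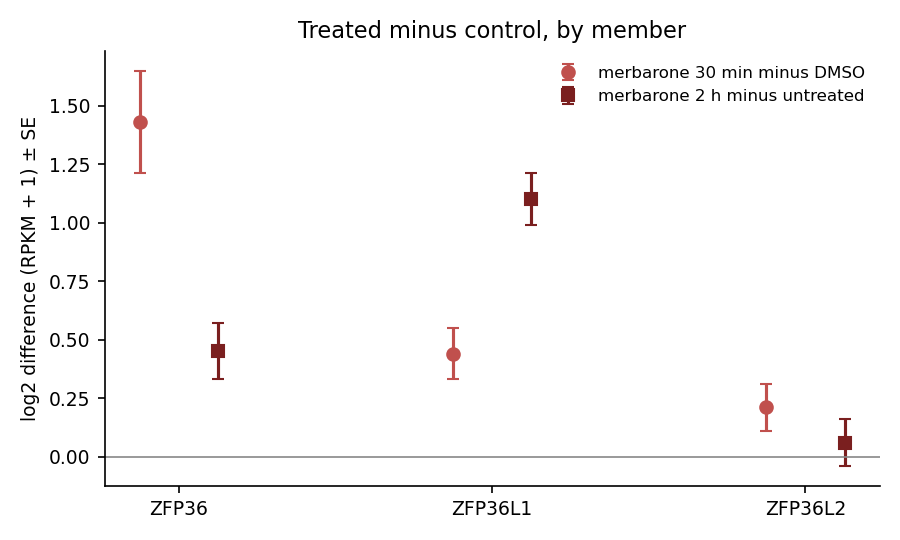
Log2 difference on the log2(RPKM + 1) scale (vertical axis, ± SE from limma) between merbarone and control for each member, with circles for 30 min against DMSO (n = 3 per group) and squares for 2 h against untreated (n = 2 per group). ZFP36 has its larger difference at 30 min (1.43 against 0.45) and ZFP36L1 at 2 h (1.10 against 0.44).

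The difference between the effects, 2 h minus 30 min, was -0.98 ± 0.31 (SE) for ZFP36, 0.66 ± 0.15 for ZFP36L1 and -0.14 ± 0.15 for ZFP36L2 in limma over all 10 libraries. None of the 3 passed the threshold, where 1.63% of 6558 genes did. With the replicate number as a block, ZFP36 and ZFP36L1 passed, where 19.1% did. Without the third 30 min merbarone library, ZFP36 passed at -1.21, in a fit that called 62 genes. Nothing is read from these calls either, because both contrasts behind this difference were known when the family was chosen. Time, kind of control and experiment cannot be told apart in this contrast.

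Levels of different members can be compared only per length of what was sequenced. The deposited values divide reads by a gene length that was close to the whole gene span, introns included. Reads recovered from the value steps implied 2601 bases for ZFP36, 8818 for ZFP36L1 and 4210 for ZFP36L2, while their canonical mRNAs are 1747, 3017 and 3693 bases long. ZFP36L1 and ZFP36L2 therefore had like RPKM values in DMSO, 17.9 and 17.6, although reads per kilobase of mRNA, scaled to library size as in RPKM, were 52.3 ± 5.80 and 20.1 ± 2.18 (SD, n = 3). On that scale ZFP36 measured 4.78 ± 0.955 in DMSO. The order ZFP36L1, then ZFP36L2, then ZFP36 held on it in each of the 10 libraries. All annotated exons together span 6466 bases for ZFP36L1, 3693 for ZFP36L2 and 1976 for ZFP36. Dividing by these lengths would bring ZFP36L1 closer to ZFP36L2, so the levels and shares below depend on the length chosen.

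The composition of the family shifted in a different way in the 2 experiments. ZFP36 made up 5.1% to 6.9% of the family's reads per kilobase of mRNA in DMSO and 9.7% to 16.8% after 30 min of merbarone, while ZFP36L1 was between 62.6% and 68.8% in these 6 libraries. At 2 h the share of ZFP36L1 was 77.1% and 77.4% untreated and 86.5% in both merbarone libraries, and ZFP36 was at 5.6% and 7.0% untreated against 4.9% and 4.3% treated. The ratio of ZFP36L1 to ZFP36L2 within a library does not depend on the library's scaling, but its size depends on the mRNA lengths used. It was 2.56 to 2.64 in DMSO and 2.86 to 3.39 after 30 min. It was 4.54 and 4.82 untreated and 10.1 and 9.33 after 2 h. The family total was 77.2 ± 8.59 and 111 ± 9.87 on the same scale in the 30 min experiment (SD, n = 3), and 145 ± 0.907 and 281 ± 0.702 in the 2 h experiment (SD, n = 2).

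**Figure D3:**
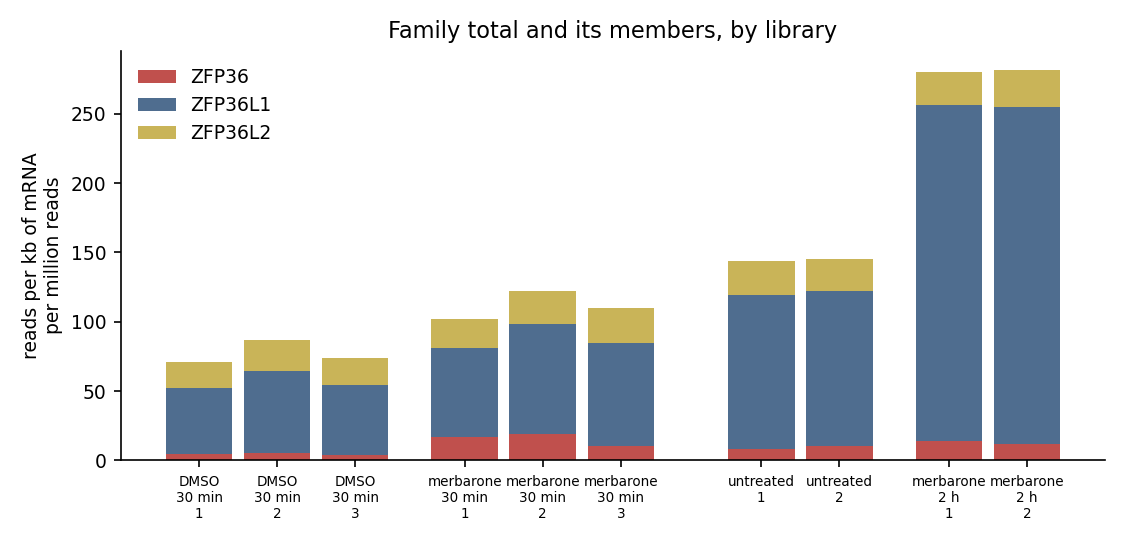
Library-scaled reads per kilobase of canonical mRNA (vertical axis) for each of the 10 libraries, stacked by member. ZFP36L1 is the largest part in every library, from 62.6% to 86.5%, and the total is highest in the 2 h merbarone libraries at 280 and 281.

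The genes whose pattern was most like that of each member were found by Pearson's r of log2(RPKM + 1) over the 10 libraries. Each experiment's mean was subtracted first, and the 6167 genes that averaged 1 RPKM or more in each experiment were compared. For ZFP36 they were FOS (r = 0.931), ERCC1 (0.921), FOSB (0.875), CHMP5 (0.800) and DUSP1 (0.773). FOS and FOSB are AP-1 subunits, DUSP1 is a MAP kinase phosphatase, and ERCC1 and FOSB share sequence positions with other listed genes, which makes their values uncertain. FOS went from 0.992 to 49.9 RPKM at 30 min and from 0.720 to 6.09 at 2 h, so it too had the larger difference at 30 min. For ZFP36L1 they were CSRNP2 (0.962), RGS2 (0.946), FGFR1OP2 (0.941), GARS1 (0.936) and HOOK2 (0.935). CSRNP2 measured 2.66 and 2.95 RPKM at 30 min and 3.17 and 5.68 at 2 h, control before treated, and HOOK2 overlaps other genes. FOS, FOSB and RGS2 averaged under 1 RPKM in both control groups, so they passed the filter only through the merbarone libraries. Their r values are therefore partly built in by that filter. For ZFP36L2 the highest r values were lower, with TMEM234 (0.767), COQ10A (0.762), RPS20 (0.750), an unnamed gene (ENSG00000005955, 0.745) and GEM (0.745). Within the family r was 0.61 for ZFP36 and ZFP36L1, 0.53 for ZFP36 and ZFP36L2 and 0.56 for ZFP36L1 and ZFP36L2. These values describe 10 libraries, in which those of a group share a treatment and depth differs between the experiments, and no test was made.

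The decay machinery that family proteins recruit was listed separately. Of 39 listed deadenylation, decapping and exosome genes, 38 were in the tables and 24 were tested at 30 min, of which 0 passed in limma, where 0.0154% of all genes did, so the count says nothing of the list (median log2 difference -0.02, against -0.01 over all genes tested). At 2 h, 0 were higher and 1 was lower, with a median of 0.01 against -0.05 over all genes, where 5.98% of all genes were higher and 7.1% lower. With the replicate block 2 were higher and 4 lower, where 32.2% of all genes passed. The lower gene was EIF4E2, a cap-binding repressor of translation that can be recruited by ZFP36. It measured 3.37 and 3.20 RPKM untreated and 2.24 and 2.33 RPKM after 2 h, a log2 difference of -0.38 ± 0.08 (SE) with an adjusted p of 0.0152, and the call was lost without either merbarone library. CNOT7, a catalytic deadenylase subunit of CCR4-NOT, measured 3.70 and 3.66 RPKM on average untreated and treated, and CNOT1, its scaffold, 1.40 and 1.72 RPKM, without passing (adjusted p 0.124; CNOT1 overlaps 1 other gene).

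Other proteins that bind 3′ UTRs were a list of 29 genes. At 30 min 14 were tested and 0 passed in limma, where 0.0154% of all genes did. At 2 h 1 of 15 was higher and 0 lower, where 5.98% of all genes were higher and 7.1% lower, so the count is near the background. Medians were -0.01 at both times, against -0.01 and -0.05 over all genes. The higher one was ARID5A, which stabilises some inflammatory mRNAs, at 0.935 and 1.2 RPKM untreated and 2.47 and 2.60 RPKM after 2 h (log2 difference 0.78 ± 0.08 SE, adjusted p 4.79e-04). It was below the filter at 30 min. ELAVL1 (HuR), which competes for AU-rich elements and stabilises mRNAs, averaged 2.84 and 2.89 RPKM at 30 min and 2.68 and 2.89 RPKM at 2 h. KHSRP, a decay-promoting AU-rich element binder, averaged 13.5 RPKM untreated and 14.1 RPKM after 2 h, with a log2 difference of 0.06 ± 0.10 (SE) that did not pass.

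Kinases, phosphatases and 14-3-3 adaptors that act on the family's proteins were listed as 26 genes, of which 21 were tested in each experiment. At 30 min 0 passed in limma without the block, where 0.0154% of all genes did, and 1 with it, where 0.123% did. That gene was DUSP1, a phosphatase that switches off p38. DUSP1 measured 14.5, 5.83 and 4.69 RPKM in DMSO and 32.5, 21.8 and 16.3 RPKM after merbarone. At 2 h DUSP1 was the 1 gene that rose and 0 fell, from 13.6 and 15.8 to 49.5 and 67.6 RPKM (log2 difference 1.91 ± 0.15 SE, adjusted p 9.32e-05), where 5.98% of all genes were higher and 7.1% lower. With the replicate block 2 were higher and 5 lower, where 32.2% of all genes passed. The list's median at 2 h was -0.13 against -0.05 over all genes. MAPKAPK2, the kinase MK2 that phosphorylates ZFP36, averaged 3.81 RPKM untreated and 3.02 RPKM after 2 h, with an adjusted p of 0.0890, and was among the lower genes with the block. RNA levels say nothing of the kinases' activity, which was not measured.

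Among 36 reported AU-rich element targets of the family, 35 were in the tables, and only 16 passed the filter at 30 min and 17 at 2 h. TNF and IL2, classical ZFP36 targets, were listed at 0 RPKM in all 10 libraries. At 30 min 1 target rose and 0 fell in limma, and it was the 1 gene of the 6500 tested (0.0154%) that passed, with a median log2 difference of 0.09 against -0.01 over all genes. That target was FOS, at 0.489, 0.839 and 1.65 RPKM in DMSO and 62.1, 48.7 and 38.9 RPKM after merbarone (log2 difference 4.69 ± 0.25 SE, adjusted p 0.00549). The call was lost without the second DMSO library and without the second merbarone library, and FOS passed the filter at 30 min only through the treated libraries. DUSP1, which is also in this list, passed with the block. The list was drawn up with earlier results of FOS, MYC, CDKN1A and DUSP1 known, so its counts are not independent of the direction.

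At 2 h, 9 of the 17 targets tested rose and 0 fell, with a median log2 difference of 0.76 against -0.05 over all genes, where 5.98% of all genes tested rose and 7.1% fell. This count and median include FOS and CXCL8, which passed the filter only through the treated libraries, so their rise is partly built in. With a filter at 5 RPKM, which leaves both out, 7 targets were called. With the filter at 1 RPKM and the replicate block 11 rose and 1 fell, where 32.2% of all genes passed. The largest rises were those of FOS (2.04 ± 0.14 SE, adjusted p 4.27e-05), DUSP1, IER3, an early response survival gene (1.75 ± 0.13, adjusted p 7.99e-05), and PIM1, a survival kinase (1.61 ± 0.11, adjusted p 3.71e-05). FOS, at 0.521 and 0.919 RPKM untreated and 7.01 and 5.17 RPKM treated, passed the filter at 2 h only through the treated libraries. IER3 measured 36.8 and 46.9 RPKM untreated and 140 and 145 RPKM after merbarone. PIM1 measured 4.95 and 5.14 RPKM against 16.0 and 19 RPKM. The other genes that rose were CDKN1A, CXCL8, VEGFA, CCL2 and MYC, which were named to complete the list after their values were seen. VEGFA, an angiogenic growth factor, measured 10.1 and 10.9 RPKM untreated and 23.7 and 22.8 RPKM after 2 h, and differed at 30 min by 0.02 ± 0.08 (SE). CXCL8, a chemokine, rested on 10 to 114 reads per library and likewise passed the filter at 2 h only through the treated libraries. CCND1, the G1 cyclin that ZFP36L1 is known to restrain, measured 96.1 and 87.2 RPKM untreated and 76.9 and 80.9 RPKM after 2 h and did not pass, and it overlaps 1 other gene. Of the 9 that rose, CCL2 and CDKN1A held 0 heptamers in their canonical 3′ UTR, MYC held 1, and IER3 and PIM1 held 4 each.

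**Figure D4:**
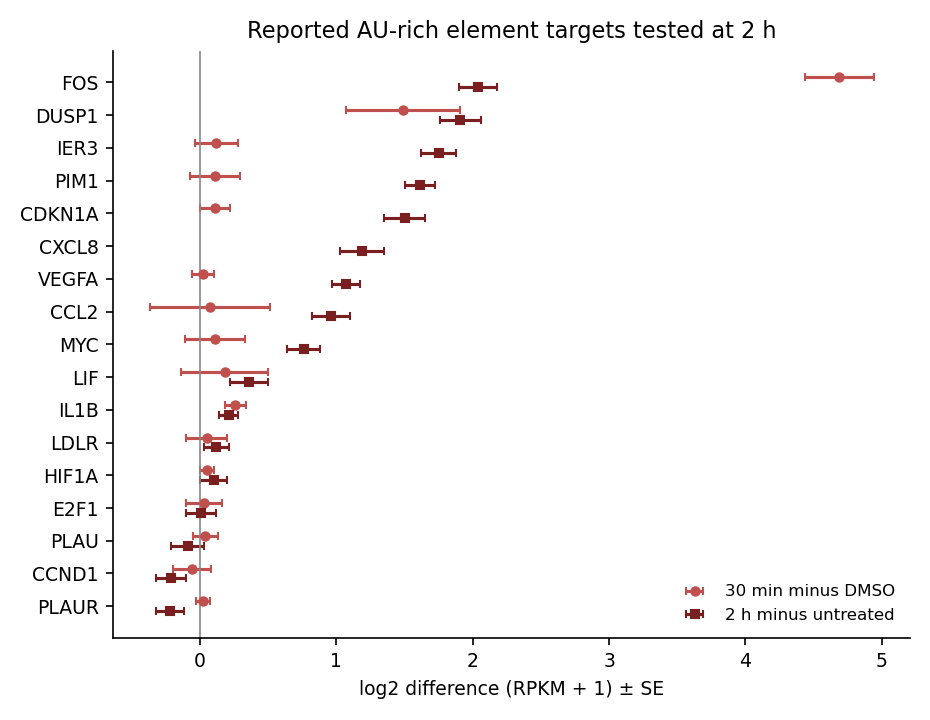
Log2 difference on the log2(RPKM + 1) scale (horizontal axis, ± SE from limma) for the 17 reported targets tested at 2 h, with circles for 30 min against DMSO and squares for 2 h against untreated. Genes are ordered by the 2 h value, FOS is the highest at both times (4.69 and 2.04), and CXCL8 has no 30 min value because it was below the filter.

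All other genes were then sorted by the number of TATTTAT heptamers in the 3′ UTR, leaving out the 3 members, as a description chosen after the data were seen. At 2 h, 4.68% of 4534 genes without a heptamer rose, 7.40% of 1527 genes with 1 or 2, and 12.5% of 305 genes with 3 or more. The shares that fell were 7.94%, 4.72% and 3.93%. Genes with more heptamers also had longer 3′ UTRs, with medians of 784, 2120 and 4170 bases. Among genes with a 3′ UTR of at least 2000 bases the shares that rose lay closer together, at 5.64% of 851, 6.83% of 805 and 7.97% of 251 genes. The shares that fell there were 5.88%, 3.73% and 3.98%, with no steady order. Median lengths still differed among these genes, at 2920, 3320 and 4710 bases. In the class of 3 or more, 38 of 305 genes rose over all lengths and 20 of 251 among the long 3′ UTRs. Genes with shorter 3′ UTRs were not sorted apart, and the part of length was not tested. The order of the rising shares was the same with quantile normalization, at 4.98%, 7.92% and 12.8% over all 3′ UTR lengths. At 30 min the 1 called gene, FOS, was in the middle class, and the median log2 differences were -0.012, 0.003 and 0.017.

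**Figure D5:**
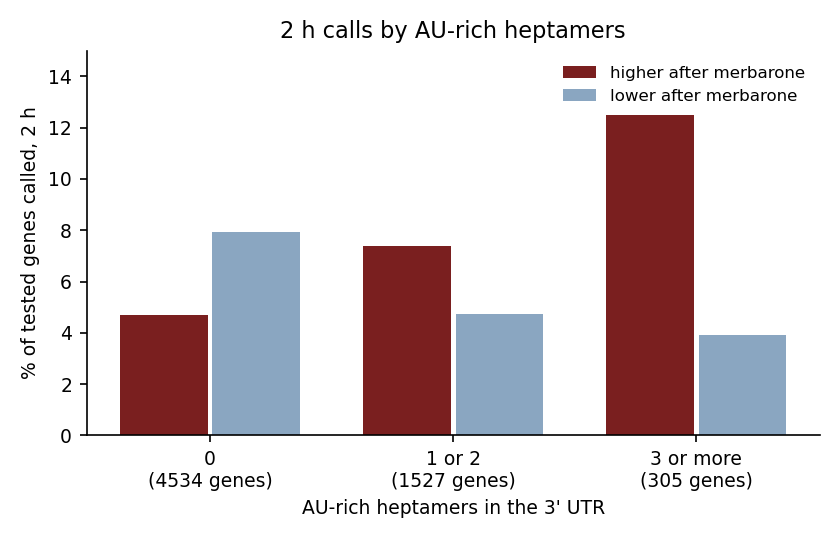
Share of tested genes that limma called higher (dark bars) or lower (light bars) after 2 h of merbarone (vertical axis, %), for genes with 0, 1 or 2, or 3 or more AU-rich heptamers in the canonical 3′ UTR. The share called higher goes from 4.68% to 12.5% across the classes and the share called lower from 7.94% to 3.93%, with 3′ UTR length differing between the classes.

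Recovered reads totalled 26633780 to 38225538 per library in the 30 min experiment and 11956652 to 13691014 in the 2 h experiment. The labels do not say whether replicates came from separate cultures, so p-values measure the spread between these libraries. Pigment epithelium genes were partly present: PMEL measured 3.68 to 5.07 RPKM and OTX2 2.35 to 4.61 RPKM over the 10 libraries, while RPE65 reached at most 0.0656 RPKM and DCT was at 0 in each. The blood and endothelial markers CD3E, HBB and CDH5 were at 0 in each library, PTPRC reached at most 0.00758 RPKM, and CD14 rested on 1 to 8 reads. None of the members overlaps another gene of the tables. In the annotation used here, ZFP36L1 shares 512 bases with a lncRNA on its own strand and ZFP36L2 shares 826 bases with one on the opposite strand, and the strand setting of the counting is not given in the sources used here.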

How the data were processed

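RNA was measured in 10 libraries (TruSeq Stranded mRNA, 150 ng of total RNA, per the labels' protocols). The authors deposited 1 RPKM value per gene and library, per the file headers. The submitters' processing notes name hg19/GRCh37, Bowtie 1.2.0, DESeq2, edgeR and deepTools 2.4.1 without roles. The counter and annotation are not given in the sources used here. Whole reads were recovered from the RPKM steps for 17680 genes, 100.0% of those above 0, within 0.01 reads. On simulated data recovery was exact for 99.6% of 17378 genes. Implied lengths lay within 1% of the GRCh37 gene span (GENCODE v44lift37) for 74.9% of 17234 genes.

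Symbols were matched for 19637 of 20327 genes. Limma 3.58.1 (R 4.3.3) used log2(RPKM + 1), eBayes with trend, a mean of at least 1 RPKM, Benjamini-Hochberg adjustment and a threshold of 0.05, two-sided, each experiment on its own. On simulated reads limma called 100 of 100 genes changed by a log2 size of 1 in either experiment. It also called 34 unchanged genes of 6519 tested at 30 min and 23 of 6537 at 2 h. The simulated libraries had the same small extra spread for every gene and no deviation shared by replicate number. These counts therefore do not measure how often a real change of that size would be called in the deposited libraries. Deviations of same-numbered libraries correlated at 0.925, 0.646 and 0.605 at 30 min, with the pairing taken from the labels' replicate numbers, so the block is given there.

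The members and lists were chosen with earlier results of these data known. Named list genes were up to 4 of the largest rises and falls past the threshold per list and fit, with those passing only with the block at 30 min. Likeness took the 5 highest r per member. Other genes are named for their role. DCP1A and CCL3 were not matched. Python 3.11.15, NumPy 2.4.6, pandas 2.3.3 and matplotlib 3.10.9 were used. Promoters are from RefSeq (GRCh38.p14).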

Additional observations from a re-analysis of the deposited data

How the results depend on the processing

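Alternatives were a pseudocount of 0.1, no filter, a filter at 5 RPKM, quantile normalization, scaling to the median, a variance model without trend, all 10 libraries in 1 fit, the replicate block, voom on recovered reads, and leaving out each library. Voom with the replicate block was added after seeing the data. No member's difference changed sign in any of them. The ZFP36 difference at 30 min was 1.43 with the replicate block and 1.70 with voom and the block, and that of ZFP36L1 0.44 and 0.47, and these were the fits in which they passed. At 2 h ZFP36 stayed at 0.45 without a filter and with all 10 libraries in 1 fit, and did not pass in these. For the difference between the effects, ZFP36 passed at -0.98 and -1.18 with the block and with voom and the block, and ZFP36L1 at 0.66 and 0.66, and at 0.67 with median scaling. At 2 h the samples share only a replicate number (correlation 0.30), and the replicate block called 2129 genes against 866.

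Leaving out 1 library gave 1.27 to 1.66 for ZFP36, 0.38 to 0.53 for ZFP36L1 and 0.14 to 0.29 for ZFP36L2 at 30 min. At 2 h it gave 0.31 to 0.59, 1.10 to 1.11 and 0.01 to 0.12. For the difference between the effects it gave -1.21 to -0.83, 0.58 to 0.72 and -0.22 to -0.07, and ZFP36 passed at -1.21 without merbarone 30 min replicate 3. Genes called numbered 0 to 2 at 30 min and 38 to 86 for the difference between the effects. At 2 h they numbered 328 to 2464, with 2464 and 1311 without untreated replicates 1 and 2, and 328 and 398 without merbarone replicates 1 and 2. Of the targets 0 to 1 were called at 30 min, with 0 without DMSO replicate 2 or merbarone replicate 2, and 9 to 10 at 2 h. Calls at 2 h were 0 to 6 for the decay machinery, 1 to 3 for other 3′ UTR binders and 1 to 7 for the kinase list, and the highest of each came without untreated replicate 1. Where 1 library remained in a group, it was taken to vary like the others.

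The number of genes called at 30 min was 1, and 0 without a filter, 2 with a filter at 5 RPKM, median scaling, quantile normalization or all 10 libraries, 8 with the replicate block and 13 with voom and the block. At an unadjusted p under 0.05 there were 24. At 2 h it was 866, and 53 without a filter, 397 with a filter at 5 RPKM, 2129 with the block, 1886 with voom and 3487 with voom and the block. For the difference between the effects it was 107, and 361, 36, 1255, 66 and 2100 in the same order. Of the targets, 1 was called at 30 min, 0 without a filter, and 2 with the block or with voom and the block. At 2 h 9 were called, 1 without a filter and 14 with voom and the block. Of the kinase list, 0 were called at 30 min and 1 with the block or with voom and the block. At 2 h 1 was called, 0 without a filter, 7 with the block, 4 with voom, 9 with voom and the block and 3 with all 10 libraries. Of the decay machinery 1 was called at 2 h, 0 without a filter, 2 without trend, 6 with the block, 2 with voom and 10 with voom and the block. Of the other 3′ UTR binders 1 was called at 2 h, 0 without a filter or with a filter at 5 RPKM, and 5 with voom and the block. The cause of these differences was not tested.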
